A study of Caenorhabditis elegans with 6 samples.

Results

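The 4 microRNAs (miRNAs) described here, cel-miR-124-3p, cel-lsy-6, cel-miR-791-3p and cel-miR-273, are known from neurons of the nematode Caenorhabditis elegans (the species prefix is left out below). They were taken by name from the newer of the raw probe tables, leaving out opposite (star) strands, and make up 4 of the 154 worm probes. Each has 1 probe, printed as 4 spots per array. The names have no arm suffix in the older table, and the identifiers are the same in both. The series holds 6 one-colour arrays, 1 for each of 2 strains under 3 exposures, made from about 100000 dauer larvae per container, the stress-resistant arrested stage. The mutant groups, labelled ced-1(n1995), and the wild-type groups, strain N2, each comprised a static slot in flight, a centrifuge slot at 1 g in flight and a static slot on the ground. The mission lasted 16.5 days at 23 °C, worms were collected 7 h after landing, and the ground run started 2 days later. The labels give a radiation dose of 1.92 mGy for the static flight slot and 2.27 mGy for the centrifuge slot. Gravity peaks of up to 0.01 g are given for the static flight slot alone. The labels name the mutant strain LS292 in titles and MT4930 in the strain field, so its genotype is taken only as labelled; ced-1 encodes an engulfment receptor for dying cells. RNA came from whole larvae, in which neurons are a small part, and fewer expressing cells cannot be told apart from less RNA per cell.

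Mature miRNAs lower the output of messenger RNAs that they pair with, mostly through the seed near their 5′ end. miR-124 is a deeply conserved neuronal miRNA that is made in many sensory neurons of the worm. lsy-6 acts in the left ASE taste neuron, where it represses the transcription factor gene cog-1 and so sets the left neuron apart from the right. miR-273 was proposed to act on the zinc finger gene die-1 in the same left-right switch. miR-791 is made in carbon dioxide-sensing neurons and acts on avoidance of that gas. In the RefSeq gene table of assembly WBcel235, all 4 have a gene, on 4 different chromosomes (IV, V, II and X for mir-124, lsy-6, mir-273 and mir-791). There mir-124 lies within trpa-1, a channel gene, and mir-273 within pde-3, a phosphodiesterase gene.

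The unit throughout is background-subtracted spot intensity, and a probe's value is the median of its 4 spots. A value was taken as measured when it exceeded the 95th percentile of the 476 spike_control spots of the same array, called the control limit. Values of a strain follow the order static flight, centrifuge flight, ground. The limit was 97, 75.3 and 150.0 in the mutant and 14, 20 and 13.3 in N2; the brightest worm probe reached 3388 to 18658 in the mutant and 367 to 505 in N2. By this measure, 8 of the 24 member values were above the limit: 5 of miR-124-3p, 3 of lsy-6, and none of miR-791-3p or miR-273. On the mutant static and centrifuge arrays 2 of the 4 miRNAs exceeded it, against 33.8% and 58.4% of all worm probes, and on the mutant ground array 0 did, against 23.4%. On the N2 static and centrifuge arrays 1 of 4 exceeded it, against 17.5% and 20.1%, and on the N2 ground array 2 of 4 did, against 19.5%.

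miR-124-3p, the member brightest over its control limit on the N2 flight arrays, read 101, 177 and 126 in the mutant and 41.5, 54.5 and 95.5 in N2. Only the mutant ground value was not above the limit of its array. The 4 spots ran from 52 to 109, from 128 to 183 and from 76 to 874 on the mutant arrays, and from -264 to 48, from -20 to 154 and from 13 to 152 on the N2 arrays. Within the arrays where it was above the limit, miR-124-3p stood at percentile 70.1 (static) and 69.5 (centrifuge) of the worm probes in the mutant, and at 89.6, 90.3 and 92.9 in N2. It was thus placed 47th and 48th of 154 on these mutant arrays and 12th to 17th on the N2 arrays. On the scaled values used for the comparisons below, the order of these 5 from high to low was N2 ground (210), mutant static (151), N2 centrifuge (150.1), N2 static (105) and mutant centrifuge (58.3). The scaled spots of every pair of neighbours in this order overlapped. The order rests on the scaling. Unscaled, mutant centrifuge was the highest of these 5, at 177, against 101 for mutant static and 95.5 for N2 ground. Values at or under the limit are given no place in an order.

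lsy-6 read 110 on the mutant static, 128 on the mutant centrifuge and 135 on the mutant ground array, against limits of 97, 75.3 and 150.0. The mutant spots ran from 90 to 146, from 91 to 138 and from 73 to 1141. It read 11.5, 11.5 and 101 in N2. The N2 ground spots were 86, 97, 105 and 156, while the highest spot was 15 on the N2 static and 17 on the N2 centrifuge array. All 4 N2 ground spots were therefore brighter than all 8 N2 flight spots. On the N2 ground array the spots around each lsy-6 spot had medians from -2 to 13, so the brightness was not shared by the surroundings. On the mutant arrays the surroundings were bright too, with medians of 73.5, 104 and 126 around lsy-6. After subtraction of the neighbours from each spot, lsy-6 came to 36, 34 and 27.5 in the mutant and to 6, -8.5 and 96 in N2, and miR-124-3p to 11, 97.5 and 2.5 in the mutant and to 25, 35 and 85.5 in N2. The N2 ground value was 7.62 times the control limit, whereas the N2 flight values were 0.82 and 0.58 times it. Where it was above the limit, its percentile was 72.7 (static) and 59.1 (centrifuge) in the mutant and 93.5 on the N2 ground array, where it was placed 11th of 154. The scaled order of these 3 was N2 ground (222), mutant static (163) and mutant centrifuge (42.0). It rests on the scaling. Unscaled the order was the reverse, with mutant centrifuge at 128, mutant static at 110 and N2 ground at 101. The scaled spots of N2 ground and mutant static overlapped, from 189 to 342 and from 134 to 218, and those of mutant centrifuge lay below both, at 30.0 to 45.4.

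miR-791-3p read 64.5, 50 and 149 in the mutant and 3.5, -18.5 and -17 in N2. All 6 values were under the control limit, the mutant ground value by 1 intensity unit. miR-273 read 52, 44.5 and 107 in the mutant and 8.5, -49.5 and -10.5 in N2, and likewise never exceeded the limit. Of 24 spots each, 3 of miR-791-3p and 2 of miR-273 were above it, all in the mutant. These levels lie within the non-specific range of each array, so no change in either miRNA was detectable in these data, and no fold, rank or fitted difference of theirs is described in the comparisons.

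**Figure D1:**
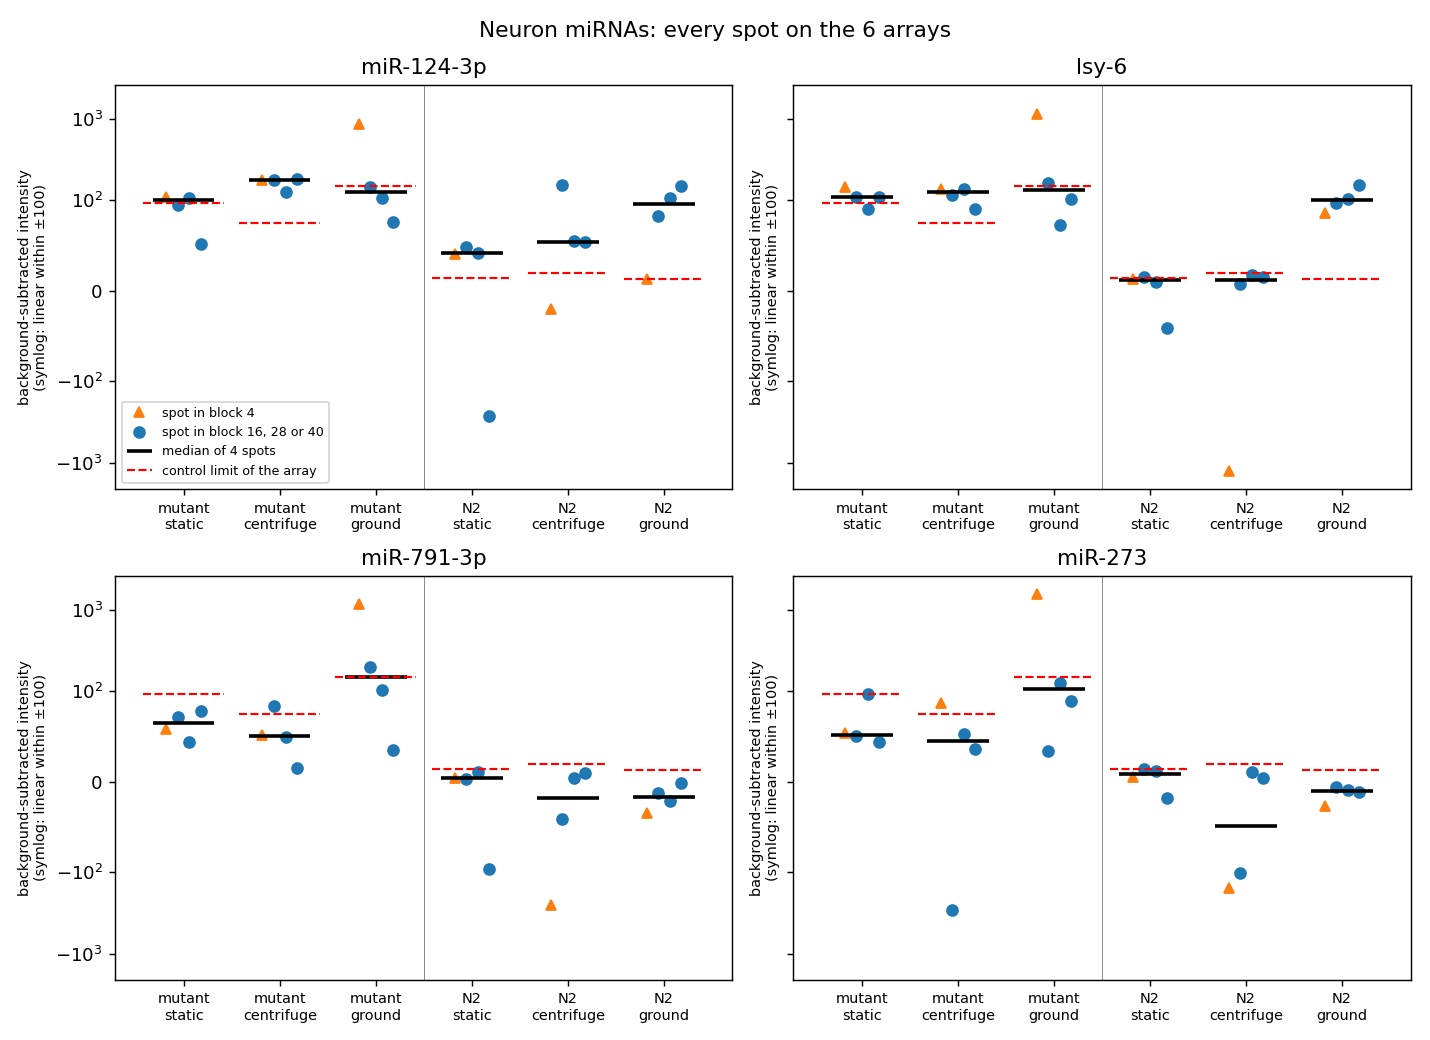
Every spot of the 4 neuron miRNAs on the 6 arrays (x axis), as background-subtracted intensity on a symlog axis that is linear within ±100. Triangles are spots in block 4, circles those in blocks 16, 28 and 40, bars the median of 4 spots and dashed lines the control limit. The N2 ground spots of lsy-6 (86 to 156) lie above all of its N2 flight spots, and the block 4 spots of the mutant ground array (874 to 1555) lie apart from the others.

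The 4 miRNAs share their printing positions: each has its spots in blocks 4, 16, 28 and 40. On the mutant ground array the block 4 spots were the highest of each, at 874 for miR-124-3p, 1141 for lsy-6, 1190 for miR-791-3p and 1555 for miR-273. The unnamed probes showed the same position: their median there was 896.5, against 68 in all other blocks, the highest of 48 blocks. Of the 17 worm probes printed in block 4, 13 had their highest spot there on that array. On the N2 centrifuge array block 4 was the lowest of the 48, with a median of -294.5 for unnamed probes, against 8 elsewhere, and a local background of 564.5, against 51. The lsy-6 spot of -1248 stands there, with a foreground of 320 over a background of 1568. On the N2 ground array 15 of the 17 worm probes had their lowest spot in block 4, among them the miR-124-3p spot at 13. Leaving out block 4 from the probes and the control spots brought the mutant ground values to 107, 105, 102 and 89 for miR-124-3p, lsy-6, miR-791-3p and miR-273, all under a limit of 133. Above the limit were then 7 of 24 values, 4 of miR-124-3p and 3 of lsy-6, since the mutant static value of miR-124-3p, at 95, no longer exceeded 97. Of the 154 worm probes, 51, 90 and 38 then exceeded it in the mutant and 26, 32 and 31 in N2. The difference of lsy-6 between flight and ground in N2, described below, was -2.18 on the log2 scale without block 4 in both flights, as against -2.15 with it.

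For static flight against ground, miR-124-3p and lsy-6 had lower values in flight in N2, and no miRNA of the 4 was called in the mutant. For this, arrays were scaled to a common median of the 8 worm probes that read 50 or more on all of them, and values under 50 were set to 50. A difference within a strain compares 1 array with 1 and has no test; it was called at 2-fold or more with the brighter side above its control limit. The compared worm miRNAs are those with either side above its control limit. In no comparison are miR-791-3p or miR-273 among them. In N2, lsy-6 scaled to 29.2 in static flight and 222 on the ground, at least 4.43-fold lower in flight (log2 -2.15, technical SE 0.19 from the spots). All N2 static spots of lsy-6 scaled under the floor of 50, so this SE holds only the spread of the ground spots. Of the members among the 34 compared worm miRNAs, lsy-6 was called as lower and miR-124-3p was not, against 23.5% of the 34. Of these, 17.6% were called as higher, and the median log2 difference was 0.16. lsy-6 stayed lower but was not called with normexp background correction (-0.086) or with scaling within each strain (-0.84). miR-124-3p scaled to 105 against 210 (-0.99, technical SE 0.66), short of 2-fold, and its spots overlapped between the arrays. It was called as lower under 6 of 13 settings, among them without block 4 (-1.15), and lay between -3.49 (mean of the spots) and -0.039 (normexp). In the mutant, miR-124-3p scaled to 151 against 117 (0.37, technical SE 0.83) and lsy-6 to 163 against 125 (0.38, technical SE 0.89). Before scaling the order was the other way, at 101 against 126 and 110 against 135. Over all settings the mutant difference ran from -0.62 to 0.47 for miR-124-3p and from -0.60 to 0.69 for lsy-6, with no call. With the ground side held at the dimmest worm probe above its limit, static flight was 1.07-fold and 1.16-fold higher on the scaled values. These folds give no direction, since the scaled spots overlapped and the sign turned with the settings. Of 60 compared worm miRNAs, miR-124-3p and lsy-6 among them, 35% were called as higher and 16.7% as lower. Neither miR-124-3p nor lsy-6 was called, and the median log2 difference of the 60 was 0.39.

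An additive model of strain and exposure was fitted with limma over 126 worm probes. For this comparison 0 of the 4 passed the threshold of 0.05 after Benjamini-Hochberg adjustment, and 0 did before it. All 4 had passed the filter on low values, miR-791-3p and miR-273 through mutant values within the non-specific range. With all N2 values of these 2 at the floor, the floor sets their fitted differences. These are left out here and appear only where the dependence on processing is listed, without support for a direction. The background was 0.0%, with 3 of 126 at an unadjusted p under 0.05. The estimate was -0.88 for lsy-6 (SE 0.69, adjusted p = 0.896) and -0.31 for miR-124-3p (SE 0.59, adjusted p = 0.896). The median over all tested probes was 0.27. Both estimates turned above 0 without the N2 static array, to 0.18 for lsy-6 and 0.50 for miR-124-3p, and the model takes the strains as the replicates of an exposure.

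For the centrifuge flight against ground, lsy-6 was again the miRNA called as lower in N2. It scaled to 31.7 in the centrifuge flight and 222 on the ground (log2 -2.15, technical SE 0.19), at least 3.50-fold lower when the N2 centrifuge side is held at the dimmest worm probe above its limit. The N2 centrifuge spots of lsy-6 also all scaled under the floor, so this SE again holds only the spread of the ground spots. Of the members among the 37 compared worm miRNAs, lsy-6 was called as lower and miR-124-3p was not, against 10.8% of the 37. Of these, 37.8% were called as higher, and the median log2 difference was 0.62. The same N2 ground array serves both flight comparisons, so these differences are not independent of each other. The same settings ended this call, at -0.25 with normexp and -0.84 with scaling within each strain. miR-124-3p scaled to 150.1 against 210 in N2 (-0.48, technical SE 0.87), with overlapping spots. In the mutant, miR-124-3p scaled to 58.3 against 117 (log2 -1.0, technical SE 0.79) and lsy-6 to 42.0 against 125 (log2 -1.32, technical SE 0.88); before scaling they read 177 against 126 and 128 against 135. Since the ground values were under the control limit, neither was called, beside 13.3% of 90 called in each direction. With no scaling and a floor of 50 the difference of miR-124-3p was 0.49, and with the mean of the spots both were called as lower, at -1.97 and -2.44.

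In limma's model, 0 of 4 passed here and 0 did so without adjustment, beside a background of 0.0% and 1 of 126 without adjustment. The estimate for lsy-6 was -1.74 (SE 0.69, unadjusted p = 0.0512, adjusted p = 1.00) and that for miR-124-3p -0.74 (SE 0.59, adjusted p = 1.00). The median over all tested probes was -0.14. With each array left out in turn, the estimate ran from -2.57 to -0.90 for lsy-6 and from -1.34 to -0.14 for miR-124-3p.

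**Figure D2:**
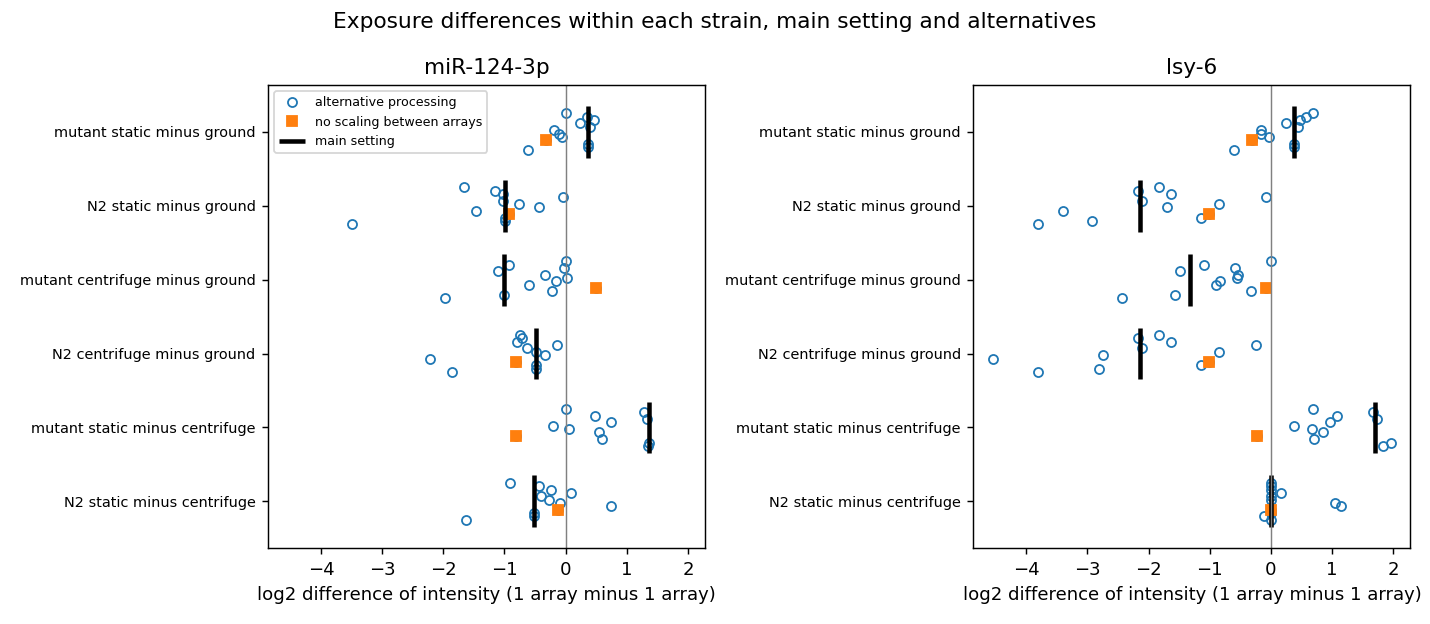
Log2 difference of intensity between 1 array and 1 array for miR-124-3p and lsy-6 (x axis), for each exposure comparison within the mutant and N2 (y axis). Black bars give the values in the text, squares the values with no scaling and circles the other alternatives. lsy-6 in N2 lies below 0 in both flights against ground under every setting shown, and the mutant static minus centrifuge bars (1.37 and 1.71) lie opposite to the unscaled values (-0.81 and -0.22).

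In orbit, static against centrifuge flight in the mutant was called as higher for miR-124-3p and lsy-6, and this rests on the scaling. On the scaled values, miR-124-3p was at 151 and 58.3 (log2 1.37, technical SE 0.26) and lsy-6 at 163 and 42.0, at least 3.26-fold with the centrifuge side at the floor (1.71, technical SE 0.14). The SE of lsy-6 holds only the spread of the static spots, since its centrifuge spots all scaled under the floor. As deposited, the static values were lower, at 101 against 177 for miR-124-3p and 110 against 128 for lsy-6. For miR-124-3p the unscaled spots lay apart in that opposite direction, at 52 to 109 against 128 to 183. Scaling multiplied the static array by 1.49 and the centrifuge array by 0.33. Both members among the 91 compared worm miRNAs were thus called as higher, against 17.6% of the 91. Of these, 1.1% were called as lower, and the median log2 difference was 0.84. Without block 4, miR-124-3p was no longer called, since its static value fell under the control limit. In N2, miR-124-3p scaled to 105 against 150.1 (-0.51, technical SE 0.69), and lsy-6 read 11.5 on both arrays, under both limits. Among 35 compared worm miRNAs in N2, 2.86% were called as higher and 20% as lower. miR-124-3p, the only member among them, was not called, and their median log2 difference was -0.51, the same as its own. In limma's model 0 of 4 passed, with or without adjustment, and so did 0.0% and 0 of 126 probes. Its estimate was 0.85 for lsy-6 (SE 0.69, adjusted p = 0.821) and 0.43 for miR-124-3p (SE 0.59, adjusted p = 0.821).

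Between the strains, the mutant arrays gave higher raw intensity for each of the 4 miRNAs at each exposure, and so did the control spots, with medians of 53, 38 and 64 against -1, 5 and -8. After scaling, lsy-6 in static flight was at 163 in the mutant and 29.2 in N2. In the main setting this is at least 3.26-fold higher in the mutant. Over 13 settings this difference ran from -1.02 to 2.48 and was called as higher under 7. In static flight, 68.8% of 64 compared worm miRNAs were called as higher in the main setting and 3.12% as lower. The median log2 difference of these 64 was 1.78, beside 1.71 for lsy-6. In the centrifuge flight, miR-124-3p scaled to 58.3 in the mutant and 150.1 in N2 (-1.36, technical SE 0.63). It was called as lower, as were 20.4% of 93, while 35.5% were called as higher. Unscaled it read 177 against 54.5. Over 13 settings its difference ran from -2.79 to 1.70, called as lower under 8 and as higher under 2. On the ground, the mutant values of miR-124-3p and lsy-6 were under their limit, and N2 was the brighter side after scaling. With the mutant side held at the dimmest worm probe above its limit, the mutant was 1.49-fold and 1.57-fold lower. The scaled spots overlapped for both. Neither was called, beside 60.8% of 51 called as higher and 13.7% as lower. Both were called as lower under 7 of 13 settings, and over all of them ran from -4.40 to 0.71 for miR-124-3p and from -4.39 to 0.73 for lsy-6. The mutant arrays stand in the newer raw table and the N2 arrays in the older, and strain cannot be told apart from table.

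In limma's model of mutant against N2, 0 of the 4 passed and 0 had an unadjusted p under 0.05, while 19.8% of the 126 worm probes passed, 24 as higher and 1 as lower. The estimate was 0.29 for lsy-6 (SE 0.57, adjusted p = 0.674) and -0.56 for miR-124-3p (SE 0.48, adjusted p = 0.445). The median over all tested probes was 0.56. The direction depended on the scaling: miR-124-3p came to -3.40 with 75th percentile scaling (adjusted p = 0.0293) and to 1.07 with scaling within each strain (adjusted p = 0.0247). With normexp background correction lsy-6 and miR-124-3p passed as lower in the mutant, as part of 92 of 126 probes past the threshold.

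**Figure D3:**
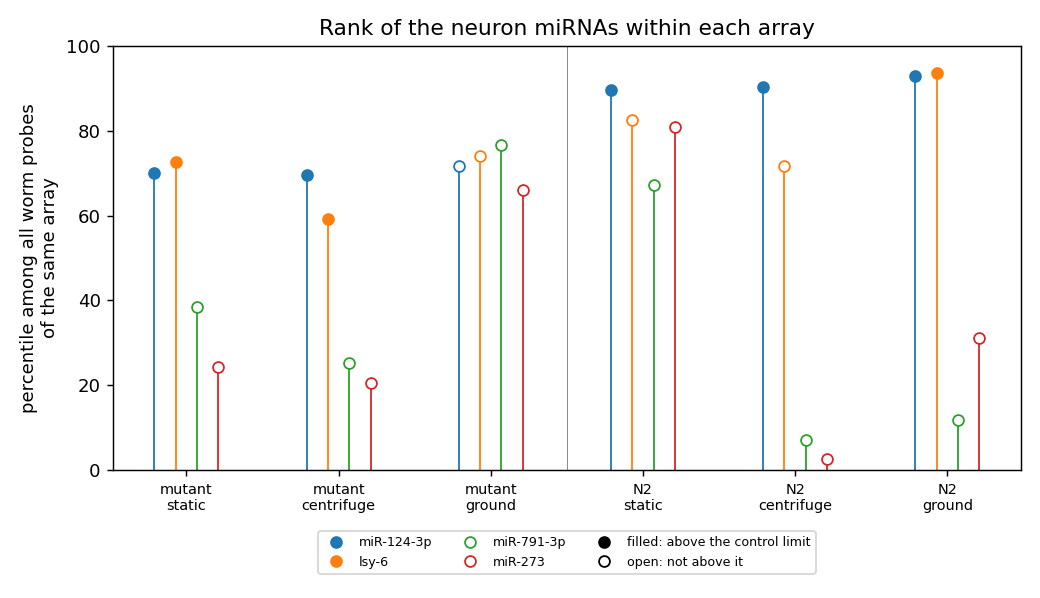
Percentile of each neuron miRNA among the 154 worm probes of the same array (y axis, 0 to 100) on the 6 arrays (x axis); filled points are above the control limit, and open points are not and carry no order. miR-124-3p lies near percentile 70 on the mutant arrays and near 90 on the N2 arrays, and lsy-6 is highest on the N2 ground array, at 93.5.

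Among 8 other miRNAs linked to the nervous system, the control limit was exceeded on at least 1 mutant array by 5 and on at least 1 N2 array by 1, beside 59.1% and 25.3% of all worm probes. miR-790-5p, a family relative of miR-791, read 54, 66.5 and 48.5 in the mutant and at most 4.5 in N2, and never exceeded it. Neither did miR-2-3p, known from neurons, or miR-79-3p. miR-87-3p exceeded it on the mutant centrifuge array alone, at 120. miR-234-3p read 77.5, 387 and 60 in the mutant and -122, 38.5 and 1 in N2, and was above the limit on both centrifuge arrays. miR-71-5p, which acts in the asymmetry of the AWC olfactory neurons and in lifespan, read 3388, 10498 and 861 in the mutant and at most 1 in N2. The glial miRNA miR-228-5p read 61.5, 203.5 and 516 in the mutant. miR-34-5p, which acts in stress responses, read 170.5, 369 and 95 there. In limma's model none of the 7 tested members of this list passed for an exposure; 1, miR-71-5p, passed as higher in the mutant.

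Of miRNAs of other tissues, the body muscle miRNA miR-1-3p exceeded the limit on 2 mutant arrays and on no N2 array, the intestinal miR-60-3p on none, and miR-84-5p, of the let-7 family, on all 6. Of 8 miRNAs of embryo and germline (miR-35 to miR-42), 2, 6 and 3 exceeded it in the mutant and 1, 1 and 1 in N2. Of all worm probes, 33.8%, 58.4% and 23.4% did so in the mutant and 17.5%, 20.1% and 19.5% in N2. The part of these miRNAs of other tissues in the results was not tested.

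Likeness to miR-124-3p and lsy-6 was measured as Pearson's r of log2 scaled intensity over the 6 arrays, among 69 worm probes above the control limit on at least 2 arrays. Closest to miR-124-3p were miR-796 (r = 0.85), miR-258 (r = 0.78) and miR-255-3p (r = 0.78). Closest to lsy-6 was miR-265 (r = 0.86), which read 72.5, 94 and 64 in the mutant and 23, -9 and 108.5 in N2. Next came miR-124-3p (r = 0.67) and miR-796 (r = 0.66). The points share their array, scaling and floor, and r rests on 6 arrays.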

How the data were processed

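Total RNA (1 µg) of each sample was labelled with the dye Hy3, per the labels' protocols. Per the file headers, the deposited tables give the intensity of 10080 spots per array, before and after subtraction of the local background; scanner and software are not given in the sources used here. A further table holds the authors' intensity and normalized intensity per probe and their ratio of arrays; the rule behind the normalization is not given, and 12 of its columns, the authors' ratio values among them, were not used. The median over spots equals the authors' value per probe for all worm probes. In the series value table, each of 6 columns equals the normalized values of another sample (relative tolerance 0.0001), so samples were named as in the raw tables.

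The raw tables were joined on probe identifier. Of 154 worm probes, those at 50 or more on at least 2 arrays (126) were fitted with limma 3.58.1 (R 4.3.3), with Benjamini-Hochberg adjustment over all of them and 2 residual degrees of freedom. The fit was tested on simulated data. Repeats were technical, per the series' design text, so p-values reflect only how far these arrays differ, which may be technical. The bound "at least N-fold" sets a side under its control limit to the dimmest worm probe above that limit, the floor or its own value, whichever is higher. It holds for the main setting and does not cover the spread of the spots. Members and lists were chosen with earlier results of these data known; the miRNAs named are the 4 members, the listed ones and the 3 most alike. Depth for arrays is limited by their number.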

Additional observations from a re-analysis of the deposited data

Results flagged for a closer look

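In 3 cases the scaled log2 difference had opposite signs in the strains, with 1 array on each side. The difference between strains was not tested, since no residual degrees of freedom are left for it. For lsy-6 in static flight against ground it was 0.38 in the mutant and -2.15 in N2, a gap of 2.53. For miR-124-3p in static flight against ground it was 0.37 in the mutant and -0.99 in N2, a gap of 1.36. For miR-124-3p in static against centrifuge flight it was 1.37 in the mutant and -0.51 in N2, a gap of 1.88; with no scaling the mutant value was -0.81. The median over all compared worm miRNAs was 0.39 in the mutant and 0.16 in N2 for static flight against ground, and 0.84 in the mutant and -0.51 in N2 for static against centrifuge flight. In static flight against ground the mutant values also turned below 0, and so had the sign of N2, under 5 settings: the mean of the spots (-0.60 for lsy-6 and -0.62 for miR-124-3p), no scaling (-0.30 and -0.32), 75th percentile scaling (-0.036 and -0.053), quantile normalization (-0.16 and -0.10) and scaling within each strain (-0.17 and -0.18). Without block 4 the mutant values were 0.58 for lsy-6 and 0.35 for miR-124-3p.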

How the results depend on the processing

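No paired analysis was possible because each strain and exposure has 1 array; the strain term of the model is the only block there is. The cause of the changes below was not tested. lsy-6 in N2, static or centrifuge flight against ground, stayed below 0 under 13 of 13 settings and was called as lower under 11, the exceptions being normexp (-0.086 and -0.25) and scaling within each strain (-0.84 in both). The count of members past the threshold stayed at 0 for each exposure comparison under all settings. For mutant against N2 it was 1 with 75th percentile scaling, beside 29 of 126 probes, and 1 with quantile normalization, beside 18. It was 2 with scaling within each strain, beside 66 of 126, and 4 with normexp, beside 92. Called differences within a strain numbered 4 of 24, against 12 with the mean of the spots, 2 with a floor of 100, no scaling or quantile normalization and 0 with scaling within each strain. Between strains they numbered 2 of 12, against 6 with the mean of the spots, 4 with no scaling, 75th percentile, quantile or within-strain scaling or without block 4, 1 with the authors' values and 0 with a floor of 100. The totals of 24 and 12 include the differences of miR-791-3p and miR-273. With neither side above its control limit, these could not be called in the main setting. Values above the control limit numbered 8, against 14 with the limit over control probes, 19 with the median of the control spots, 5 with the neighbouring spots subtracted and 3 when all 4 spots had to exceed it. For the counts of calls and of values above the limit, shares over all worm probes at these settings are not given here. Those counts do not show whether the members moved differently from other probes. Leaving out block 4 and subtracting the neighbouring spots were chosen after seeing the data.

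In the main setting the values of miR-791-3p and miR-273 are under the control limit on every array and support no direction. With the mean of the spots their mutant ground values were 381 and 451, above the limit of 150. In the mutant, centrifuge flight against ground was called as lower for miR-791-3p under 2 of 13 settings and for miR-273 under 1. Static flight against ground was called as lower under 1 for each. On the ground, mutant minus N2 was called as higher under 1 for each. Among fitted estimates and called differences, signs turned as follows. With no scaling, static minus centrifuge came to -0.47 for miR-124-3p and -0.11 for lsy-6 in limma's model and to -0.81 and -0.22 in the mutant alone; miR-124-3p in mutant minus N2 came to 1.04, and to 1.70 in the centrifuge flight. With scaling within each strain, miR-124-3p came to -0.24 (static minus centrifuge), -0.21 (the same in the mutant), 1.07 (mutant minus N2) and 1.21 (the same in the centrifuge flight). The last 2 were 0.082 and 0.099 with the authors' values. With 75th percentile scaling and quantile normalization, miR-273 came to 0.44 and 0.59 in static minus ground and to -0.30 and -0.39 in mutant minus N2, and lsy-6 to -2.05 and -1.33 in mutant minus N2 and to -1.02 and -0.94 in static flight alone. With normexp, mutant minus N2 came to -1.42 for lsy-6, -1.72 for miR-791-3p and -1.87 for miR-273, lsy-6 in static flight alone to -0.79, and static minus ground to 0.080 for lsy-6 and 0.095 for miR-124-3p. lsy-6 in mutant minus N2 was -0.039 with a floor of 100, -0.20 with the control level subtracted and -0.38 with the neighbours subtracted. miR-124-3p in static minus centrifuge was -0.14 with the mean of the spots, -0.023 with quantile normalization and -0.46 with the neighbours subtracted.

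With each array left out in turn, static minus ground ran from -1.12 to 0.50 for miR-124-3p, -1.94 to 0.18 for lsy-6, -0.76 to 0.24 for miR-791-3p and -0.51 to 0.16 for miR-273. Static minus centrifuge ran from -0.38 to 1.24, -0.21 to 1.91, -0.13 to 1.07 and -0.089 to 0.72 in that order, and mutant minus N2 ran from -0.41 to 0.85 for lsy-6. Centrifuge minus ground ran from -1.34 to -0.13 for miR-791-3p and -0.90 to -0.089 for miR-273. It stayed below 0 without the mutant ground array, at -0.24 and -0.16. All N2 values of both are at the floor, so no direction is read from these estimates. Signs turned without the N2 static array (miR-124-3p and lsy-6) or the mutant ground array (miR-791-3p and miR-273) in static minus ground, and without mutant static (miR-124-3p and lsy-6) or mutant centrifuge (miR-124-3p, miR-791-3p and miR-273) in static minus centrifuge. In mutant minus N2, lsy-6 came to -0.41 without either static array. A lone array is there assumed to vary like the others. Probes past the threshold in mutant minus N2 numbered 25, against 4 with a floor of 100, 6 with the neighbours subtracted, 12 with the control level subtracted, 13 with no filter, 38 without block 4, 49 with a floor of 20, 66 with scaling within each strain, 92 with normexp and 0 to 10 with an array left out. Values at or under the control limit carry no order.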
